A study of Homo sapiens with 39 samples.

Results

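CAPN3, ABCB5, TRPM1, GPNMB, RAB38, RAB27A, MLPH and MYO5A are genes of the melanocyte that take no direct part in making melanin. They were named as a set of 8 genes, out of 60671 in the deposited gene table, for their link to the transcription factor MITF and their roles in melanosome transport or as a channel, protease or transporter. The set was chosen by earlier results of these libraries, above all the CAPN3 and ABCB5 levels of the WM115 R4 clones against WT, so the differences of those clones from WT are given as a description with no test.

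The libraries were made from A375 and WM115, 2 established human melanoma lines, in which a region of a Sox10 enhancer had been deleted. A375 gave 4 libraries labelled WT, 3 of clone 1.1 and 4 of clone 1.2 (both R1 deleted), and 4 of clone 4.1 and 3 of clone 4.2 (both R4 deleted). WM115 gave 4 WT libraries, 5 of clone 1.1 and 3 of clone 1.2 (R1 deleted), 3 of clone 4.1 and 3 of clone 4.2 (R4 deleted), and 3 of clone 1.3, whose title points to R1 and whose genotype field says R4. WM115 clone 1.3 therefore enters no comparison of regions. Each number in the titles is taken here as 1 derived clone, so a difference from WT belongs to that clone as much as to its deletion, and p-values measure only the spread between libraries. Where R1 and R4 lie is not given in the sources used here.

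Melanosomes are lysosome-related organelles in which pigment cells build and store melanin. RAB38 is a small GTPase that helps carry melanin enzymes to young melanosomes. RAB27A sits on mature melanosomes and recruits melanophilin (MLPH), which binds the actin motor myosin Va (MYO5A) and so holds melanosomes at the cell edge. GPNMB is a membrane glycoprotein of melanosomes and lysosomes and a relative of PMEL. CAPN3 is a calcium-activated cysteine protease best known from muscle, TRPM1 a cation channel, and ABCB5 an ATP-driven membrane transporter. MITF binds the short DNA words CATGTG and CACGTG and is the main regulator of the melanocyte programme. SOX10, the factor whose enhancer was deleted, is one of the activators of MITF.

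All values are TPM, the usual measure of transcript abundance per length in which every library has the same sum, so levels can be compared between genes. SOX10 ran from 381 to 876 TPM in A375 and from 9.56 to 553 TPM in WM115. The lowest SOX10 value, 9.56 TPM, belonged to library 3 of WM115 clone 1.2, whose MITF was 6.16 TPM, and that library stood apart from libraries 1 and 2 of its clone (SOX10 279 and 272 TPM). TYR, MLANA and PMEL, which mark pigmented cells, stayed at or below 2.54 TPM in A375 and reached 91.6, 54.4 and 142 TPM in WM115. Of 13 markers of keratinocytes, fibroblasts, endothelium and blood, COL1A2 was at 365 to 857 TPM in WM115, LUM and PECAM1 reached 26.4 and 12.0 TPM there, and KRT14 reached 30.4 TPM in A375. Mitochondrial genes held 0.968% to 4.92% of the TPM in A375, 4.71% to 19.4% in the WM115 clones and 13.7% to 15.6% in WM115 WT. Ribosomal protein genes held 11.1% to 12.8% in WM115 WT, 10.6% in library 3 of clone 1.3 and 15.1% to 17.4% in the other 16 libraries of WM115 clones. That share moved with the difference between WT and clones in WM115, and its part in the results was not tested.

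The start of a transcript shows which promoter made it, and for CAPN3, TRPM1, ABCB5 and RAB27A most of the placed transcript level came from starts inside the gene. CAPN3 lies on chromosome 15 (42359500 to 42412318, plus strand, GENCODE 29, GRCh38). Its transcripts that begin inside the gene, between 42404779 and 42404867, made up 52.6% ± 5.96 of its TPM in WM115 WT (SD, n = 4), and 38 transcripts that GENCODE 29 does not place made up 46.0% ± 4.97. TRPM1 (chromosome 15, 31001061 to 31161273, minus strand) was represented in WM115 WT mainly by 4 transcripts that begin at its inner start, 31101706 to 31101727, with a mean of 1.38 TPM, and by a retained-intron transcript listed in WT library 1 alone at 1.41 TPM. ABCB5 (chromosome 7, 20615207 to 20777038, plus strand) came from an inner start at 20647330 to 20647422, which held 99.3% ± 0.167 of its TPM in the 3 WM115 WT libraries above 5 TPM. Transcript levels are estimates from short reads that several transcripts share, so these shares are less certain than the gene totals.

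Below are the bases just before the RefSeq starts nearest to the inner starts of CAPN3 and TRPM1 and to the start of RAB27A-202, printed 5′ to 3′ on the gene's strand from RefSeq (GRCh38.p14) because WM115 transcripts of these genes began there. Capitals mark CATGTG, its reverse complement CACATG, or CACGTG.
CAPN3, chr15:42404514-42404763, plus strand: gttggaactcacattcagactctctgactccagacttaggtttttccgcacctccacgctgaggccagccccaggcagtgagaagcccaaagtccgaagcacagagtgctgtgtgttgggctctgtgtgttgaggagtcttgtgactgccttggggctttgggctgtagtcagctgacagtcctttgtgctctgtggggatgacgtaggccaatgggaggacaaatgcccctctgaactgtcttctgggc
TRPM1, chr15:31101728-31101975, minus strand: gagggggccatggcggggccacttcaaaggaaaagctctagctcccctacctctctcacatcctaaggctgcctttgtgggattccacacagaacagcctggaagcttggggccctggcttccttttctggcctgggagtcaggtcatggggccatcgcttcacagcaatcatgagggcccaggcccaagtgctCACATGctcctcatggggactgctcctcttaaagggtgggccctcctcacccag
RAB27A-202, chr15:55270400-55270649, minus strand: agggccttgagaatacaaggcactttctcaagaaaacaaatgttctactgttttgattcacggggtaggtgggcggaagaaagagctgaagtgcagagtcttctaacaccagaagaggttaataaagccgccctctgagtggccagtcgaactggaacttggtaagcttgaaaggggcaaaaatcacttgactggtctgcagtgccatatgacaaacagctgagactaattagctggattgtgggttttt

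In GPNMB and MLPH the words stood in stretches annotated as exon, so 30 bases around each are shown, with the same use of capitals.
GPNMB, chr7:23246640-23246669, plus strand: gtgagtcataagCACATGagttgtaagagg
GPNMB, chr7:23246701-23246730, plus strand: gcttaataccatCACATGatcctccccgag
MLPH, chr2:237487204-237487233, plus strand: cggggcgcagccCACGTGgttcgggcggga

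The GPNMB words began 123 and 62 bases before its RefSeq start, the TRPM1 word 56 bases before the inner start, and the MLPH word 35 bases before one of its starts. RefSeq windows were matched for 6 of the 8 genes (14 windows), and 3 genes held a word in the 250 bases before a start in 4 windows, the fourth being the outer TRPM1 start. CATGTG or its complement stood in 9.42% of the 35116 windows of all genes, CACGTG in 6.35%, and either word in 15.22%. A word is a description of these letters and not a binding site.

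CAPN3 was abundant in WM115 WT, at or below 2.64 TPM in the WM115 R4 clones and at or below 0.999 TPM in A375. In WM115 WT libraries 1 to 4 CAPN3 was 369, 312, 60.5 and 489.8 TPM. In clone 4.1 it was 1.095, 0.474 and 2.64 TPM and in clone 4.2 1.0, 1.55 and 2.60 TPM. All 6 R4 libraries lay far below the lowest WT library, and the WT mean was 219.7 times that of clone 4.1 and 179 times that of clone 4.2. The ratio for clone 4.1 rested in part on library 3 of that clone, without which it was 393, and over left-out libraries it ran from 165 to 393 for clone 4.1 and from 144 to 241 for clone 4.2. In bulk RNA fewer cells with the gene and less RNA per cell cannot be told apart, here or for the other genes. The R1 clones lay between: clone 1.1 had 157, 62.4, 22.2, 40.4 and 197 TPM and clone 1.2 had 18.3, 85.9 and 4.84 TPM. Both R1 clones overlapped WT, with WT library 3 the lowest of WT. Clone 1.3 reached from 21.3 TPM in library 2 to 503 TPM in library 3, the widest span of the 6 WM115 groups for this gene. In A375 CAPN3 did not pass the filter of at least 1 TPM in 3 libraries.

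By mean TPM ABCB5 followed the same order of groups at lower levels, with clone 1.3 placed above clone 1.1 by its library 3. By median clone 1.3 lay below clone 1.1, at 2.44 against 11.4 TPM. ABCB5 in WM115 WT was 51.2, 35.2, 4.97 and 104 TPM and in clone 1.1 13.9, 11.4, 2.61, 8.21 and 22.9 TPM. Clone 1.2 had 0.788, 9.70 and 0 TPM, and clone 1.3 had 2.44, 0.753 and 35.0 TPM. Libraries of clones 4.1 and 4.2 held at most 0.115 TPM, with 3 of 6 listed at 0, and none overlapped WT. In A375 the gene was listed at 0 in 13 of 18 libraries and never exceeded 0.094 TPM. On the log2(TPM + 1) scale, which compresses low values, the R4 clones of WM115 were below WT by −6.76 (SE 0.99) and −6.53 (SE 0.99) for CAPN3 and by −5.03 (SE 0.98) and −4.95 (SE 0.98) for ABCB5. The size for ABCB5 depends on the added constant, since with 0.1 in place of 1 the differences were −8.15 and −7.58.

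Between the R1 clones of WM115 neither gene passed the test, but this depended on 1 library and, for ABCB5, on the added constant. The differences were −1.75 (SE 0.95) for CAPN3, with a limma Benjamini-Hochberg adjusted p of 0.161, and −2.01 (SE 0.93) for ABCB5, with an adjusted p of 0.101. Library 2 of clone 1.2 was the highest of its clone for both genes, and without it the differences were −2.76 (adjusted p = 0.0404) and −3.01 (adjusted p = 0.0243). Without library 3, the lowest, they were −0.81 (adjusted p = 0.631) and −1.30 (adjusted p = 0.417). With log2(TPM + 0.1) ABCB5 was called, at −3.34 (limma adjusted p = 0.0451), and CAPN3 was not, at −1.83 (adjusted p = 0.166).

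TRPM1 was the scarcest of the 8 genes. It was 2.71, 0.674, 0 and 3.72 TPM in WM115 WT, 1.70 TPM in library 3 of clone 1.3, and at most 0.02 TPM in the other 16 WM115 libraries outside WT. In A375 the highest value was 0.01 TPM. These few libraries were the ones that carried TRPM1 through the filter in WM115, so its calls below WT in clones 1.1 and 1.2 follow from the filter and are not read as support. The log2 differences were −1.22 (SE 0.35, limma adjusted p = 0.0175) in clone 1.1 and −1.21 (SE 0.39, adjusted p = 0.0348) in clone 1.2, and the call in clone 1.1 was lost without WT library 1 or 4.

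**Figure D1:**
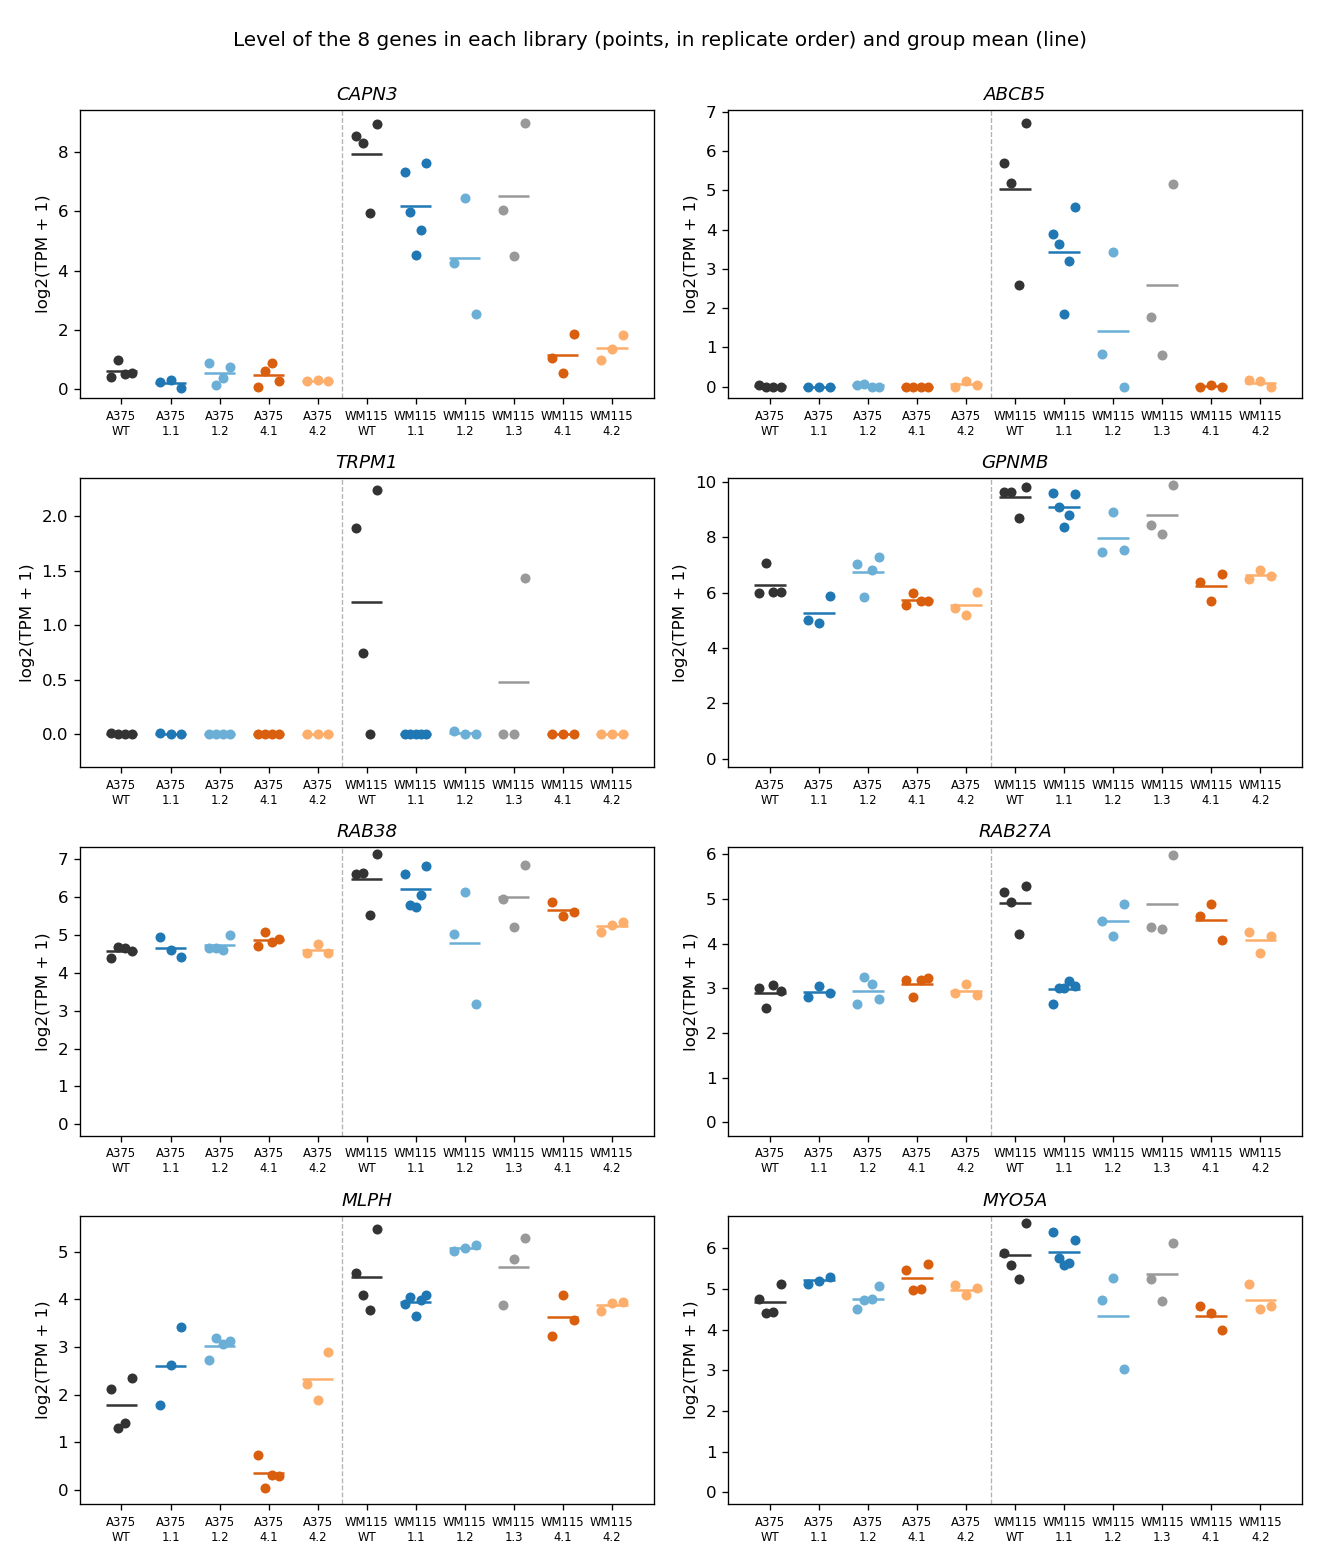
Level of each of the 8 genes as log2(TPM + 1) on the vertical axis for the 11 groups of the horizontal axis; points are libraries and lines are group means. CAPN3 and ABCB5 are near 0 in A375 and in the WM115 R4 clones (4.1 and 4.2), MLPH is lowest in A375 clone 4.1, and RAB27A is lowest within WM115 in clone 1.1.

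GPNMB was the member with the highest level in WM115. WT libraries of WM115 held 800.1, 802, 415 and 915 TPM. Clone 4.1 had 82.4, 51.3 and 102 TPM and clone 4.2 had 89.1, 112 and 95.7 TPM. No library of either R4 clone overlapped WT, and the WT mean was 9.32 and 7.40 times theirs, with log2 differences of −3.20 (SE 0.42) and −2.82 (SE 0.42), given as a description. In clone 1.1 GPNMB was 785, 546, 333, 450.1 and 764 TPM, which overlapped WT at a log2 difference of −0.36 (SE 0.37, limma adjusted p = 0.519). In clone 1.2 it was 179, 486 and 186 TPM and fell by 1.47 (SE 0.42, limma adjusted p = 0.0194) against WT, with library 2 of the clone above the lowest WT library. Leaving out library 1 of the clone gave −1.22 with an adjusted p of 0.0682.

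In A375 the 2 R1 clones differed from each other. GPNMB was 62.5, 134, 63.5 and 64.4 TPM in A375 WT, with library 2 at over 2 times the others. Clone 1.1 held 31.4, 29.3 and 57.4 TPM, all below WT, and clone 1.2 held 131, 57.0, 113 and 155 TPM. Neither difference from WT passed the test (log2 differences −1.01 and 0.48, limma adjusted p = 0.234 and 0.422), but clone 1.2 exceeded clone 1.1 by 1.49 on the log2 scale (SE 0.34, adjusted p = 0.00837). MITF was lower in clone 1.1 than in clone 1.2 as well, at 8.41 ± 1.63 TPM (SD, n = 3) against 16.5 ± 2.26 TPM (SD, n = 4). Of the 4 markers of other cell types tested in A375 (KRT14, LUM, COL1A1 and DCN), LUM and COL1A1 were called higher in clone 1.2 than in clone 1.1, and the 13 markers summed to 27.3 to 40.4 TPM in clone 1.2 and 9.05 to 22.1 TPM in clone 1.1. The part of MITF and of these markers in the GPNMB difference was not tested. Without library 2 of clone 1.1 the GPNMB call was lost, and so it was within 1 set of mitochondrial share (1.01, adjusted p = 0.506). The R4 clones of A375 had 46.3 to 63.2 and 35.4 to 64.6 TPM, which did not pass the test either.

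RAB38 was steady in A375 and variable in WM115. All 18 A375 libraries lay between 19.9 and 32.8 TPM, and no clone of that line differed from WT by more than 0.31 on the log2 scale. Each A375 clone 4.1 library lay above the WT library of the same number, a pairing the fit did not use. WM115 WT libraries had 96.0, 99.1, 45.1 and 138 TPM. Clone 4.2 lay below them at 32.9, 37.4 and 39.7 TPM, while clone 4.1, at 57.4, 43.9 and 48.0 TPM, overlapped the low WT library 3. In clone 1.2 RAB38 was 31.3, 69.5 and 8.00 TPM, a fall of 1.70 (SE 0.51, limma adjusted p = 0.0248) against WT. That call was lost without WT library 1 or 4 and without library 3 of the clone, where the difference was −0.90 (adjusted p = 0.235). Clone 1.1 had 97.3, 53.8, 52.1, 65.0 and 113 TPM and overlapped WT (log2 difference −0.27, SE 0.45).

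RAB27A had its lowest WM115 level in an R1 clone, 1.1, and not in the R4 clones. The 5 libraries of WM115 clone 1.1 held 5.28, 7.10, 7.05, 8.01 and 7.25 TPM. WT libraries held 34.6, 29.8, 17.7 and 38.0 TPM, so the groups did not overlap. The fall of 1.92 (SE 0.29, limma adjusted p = 0.000183) stayed past the threshold under every alternative that was run, with adjusted p between 0.000101 and 0.0347. Genes of chromosome 15 had a median difference of −0.39 in this clone, and relative to it RAB27A was at −1.54. Of the other members on this chromosome, MYO5A differed by 0.09 (SE 0.38, limma adjusted p = 0.899). CAPN3 differed by −1.76 (SE 0.87, with no test) and TRPM1, at levels near 0, by −1.22 (SE 0.35).

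The other WM115 groups held at least 12.8 TPM of RAB27A in every library. Clone 1.2 had 21.7, 16.9 and 28.5 TPM, and it exceeded clone 1.1 by 1.54 (SE 0.32, limma adjusted p = 0.00123). Clones 4.1 and 4.2, in which CAPN3 and ABCB5 were almost absent, had 23.7, 28.7 and 16.0 TPM and 18.1, 12.8 and 17.1 TPM, with log2 differences from WT of −0.37 and −0.83 and overlapping libraries. The RAB27A level of clone 1.1 was in the range of A375, where all 18 libraries lay between 4.90 and 8.49 TPM and no clone moved by more than 0.20.

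Most RAB27A came from 3 start clusters on the minus strand of chromosome 15. RAB27A-201 starts in the cluster at 55289791 to 55289815, RAB27A-212 at 55270874 to 55270909 and RAB27A-202 in the cluster at 55270256 to 55270394. The first 2 clusters gave 32.6% ± 8.06 and 51.0% ± 6.30 of the gene in WM115 WT (SD, n = 4). RAB27A-202 was listed at 6.06, 2.71, 0 and 11.03 TPM in WT libraries 1 to 4 and at 1.12, 0 and 11.7 TPM in clone 1.3. It was above 0 in 9 of 21 WM115 libraries and listed at 0 in all 18 A375 libraries. The fall in clone 1.1 was present in both larger transcripts: RAB27A-201 was 2.43 to 4.06 TPM there against 6.65 to 10.8 TPM in WT, and RAB27A-212 was 1.70 to 4.26 TPM against 10.6 to 18.1 TPM. The stacked bars of RAB27A transcripts show both.

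**Figure D2:**
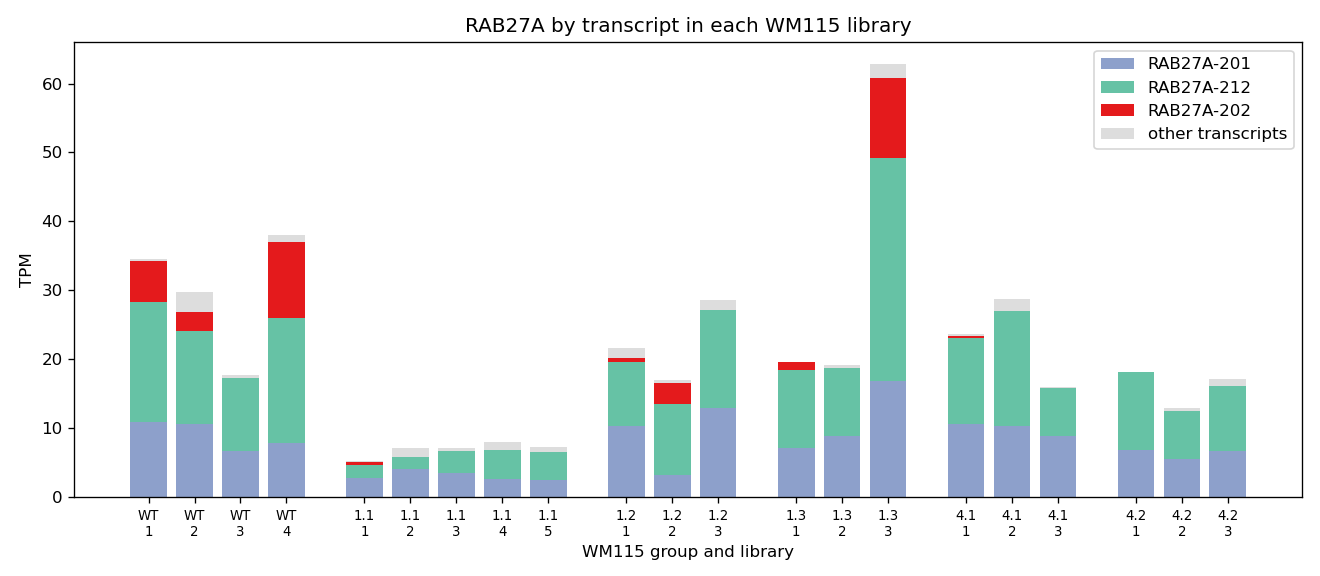
RAB27A level in TPM (vertical axis, from 0) in each WM115 library (horizontal axis), split into 3 named transcripts and the remainder; there is 1 bar per library. The 5 bars of clone 1.1 stand below all others, and RAB27A-202 is tallest in WT library 4 and clone 1.3 library 3.

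MLPH, the link between RAB27A and MYO5A, changed in A375 and in opposite directions in different clones. A375 WT libraries had 3.38, 1.46, 1.66 and 4.096 TPM. Clone 1.2 lay above them at 5.59, 8.18, 7.33 and 7.73 TPM, a rise of 1.23 (SE 0.32, limma adjusted p = 0.0226). Clone 4.1 lay below them at 0.676, 0.035, 0.242 and 0.231 TPM, a fall of 1.44 (SE 0.32, limma adjusted p = 0.0308) on the log2(TPM + 1) scale and of 2.93 with 0.1 added. The second R4 clone did not share the fall: clone 4.2 had 3.71, 2.70 and 6.46 TPM and exceeded clone 4.1 by 1.99 (SE 0.34, limma adjusted p = 0.00371). Clone 1.1 had 2.46, 5.17 and 9.65 TPM, a log2 difference of 0.81 from WT (SE 0.34, limma adjusted p = 0.423).

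Both MLPH calls against WT were close to the threshold. The rise in clone 1.2 was lost without clone library 2, 3 or 4 or WT library 2 or 3, with an adjusted p of 0.0567 without WT library 2. The fall in clone 4.1 was lost without clone library 2, 3 or 4 or WT library 1 or 4, with an adjusted p of 0.108 without WT library 4. With the replicate number as a block, the fall in clone 4.1 had an adjusted p of 0.00609. Some markers of other cell types also differed between these clones. The 13 markers summed to 7.21 to 31.4 TPM in A375 WT, 27.3 to 40.4 TPM in clone 1.2, 3.70 to 10.4 TPM in clone 4.1 and 17.8 to 35.5 TPM in clone 4.2. In clone 1.2, where MLPH rose, 2 of the 4 markers tested were called higher than in WT: LUM by 1.48 (SE 0.27, limma adjusted p = 0.00199) and COL1A1 by 1.103 (SE 0.32, adjusted p = 0.0379), with a median of 1.21 over the 4. In clone 4.1, where MLPH fell, none of the 4 was called against WT. None had limma's unadjusted p under 0.05 there, as 10.5% of all genes did. Their median was −0.20, against −0.02 for all genes. COL1A2 and KRT1 stayed at or below 0.345 and 0.034 TPM in A375. KRT14, which marks keratinocytes, had its lowest A375 mean in clone 4.1, 2.75 TPM against 10.6 TPM in WT. KRT14 was also called higher in clone 4.2 than in clone 4.1, by 2.93 (SE 0.77, limma adjusted p = 0.0426), and the part of these markers in the MLPH values was not tested.

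In WM115 MLPH was 22.5, 16.0, 12.7 and 43.8 TPM in WT. It stood at 31.4, 33.0 and 34.3 TPM in clone 1.2, within the WT range, and at 13.97, 15.7, 11.6, 14.9 and 16.1 TPM in clone 1.1. Clone 1.2 exceeded clone 1.1 in every library, by 1.14 (SE 0.31, limma adjusted p = 0.00866). Neither passed the test against WT (limma adjusted p = 0.187 and 0.194). The R4 clones were at 8.37 to 16.1 TPM and 12.5 to 14.4 TPM, overlapping WT, with log2 differences of −0.84 and −0.60.

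MYO5A, the motor, was higher in each WM115 WT library than in any A375 WT library, with means of 59.8 and 25.3 TPM, a difference between lines that was not tested. A375 WT had 26.1, 20.3, 20.7 and 34.1 TPM, and no A375 clone passed the test. The A375 difference of greatest size was in clone 4.1 (30.4 to 48.1 TPM, log2 difference 0.58, SE 0.18, limma adjusted p = 0.167). Clone 4.1 libraries, at 43.1, 30.4, 31.2 and 48.1 TPM, each lay above the WT library of the same number, a pairing this test did not use. In WM115 WT the gene had 58.0, 47.1, 36.6 and 97.5 TPM, and the R4 clones lay below every WT library at 23.0, 20.2 and 14.9 TPM and 34.1, 21.7 and 22.8 TPM. In clone 1.2 MYO5A was 25.4, 37.5 and 7.15 TPM, a fall of 1.49 (SE 0.43, limma adjusted p = 0.0198) that was −0.84 (adjusted p = 0.189) without library 3. In clone 1.1 it was 83.2, 53.2, 47.4, 48.4 and 73.0 TPM, in the range of WT. Clone 1.2 was below clone 1.1 by −1.58 (SE 0.41, limma adjusted p = 0.00622), or −0.92 (adjusted p = 0.0809) without library 3.

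In the R1 clones of WM115 the 3 proteins of the RAB27A, MLPH and MYO5A tether therefore had transcripts that did not move as 1 group. Clone 1.1 had low RAB27A with MYO5A in the WT range. Clone 1.2 had MYO5A called below WT with RAB27A and MLPH overlapping WT, the MYO5A call being lost without library 3. In the R4 clones all 3 were lower than WT, given as a description. In clone 4.1 RAB27A was at −0.37 (SE 0.33), MLPH at −0.84 (SE 0.33) and MYO5A at −1.50 (SE 0.43). In clone 4.2 they were at −0.83 (SE 0.33), −0.60 (SE 0.33) and −1.09 (SE 0.43). Only MYO5A lay below every WT library there, and differences among the 3 genes were not tested.

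**Figure D3:**
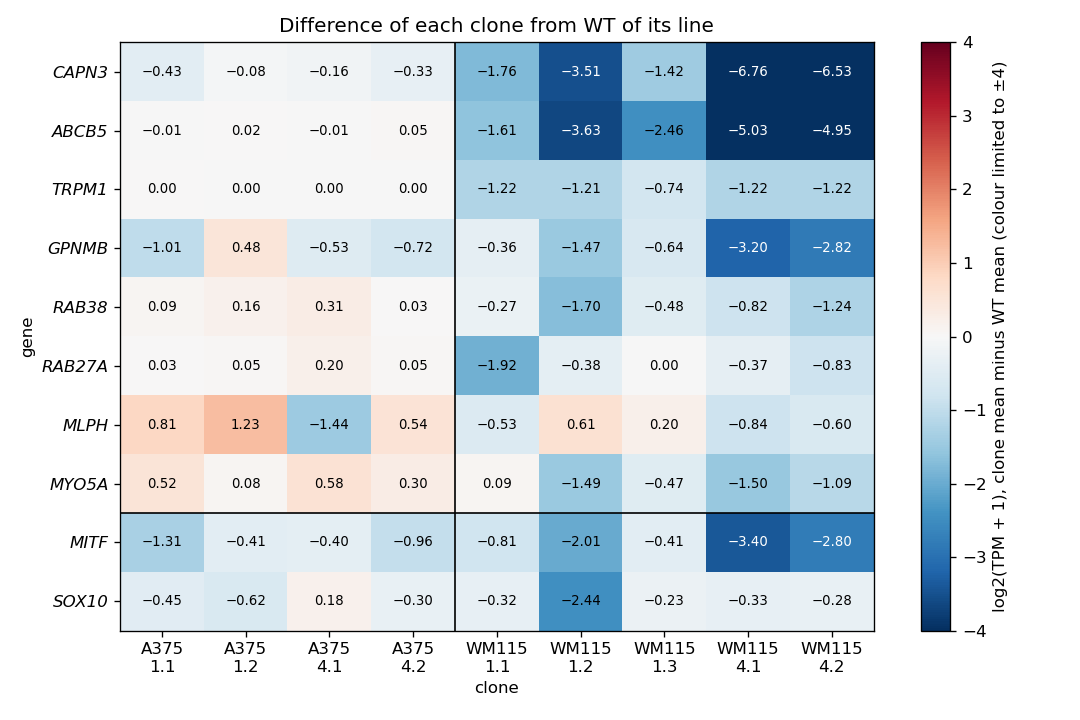
Difference of each clone from WT of its line, in log2(TPM + 1), for the 8 genes and for MITF and SOX10 (rows) in the 9 clones (columns); colours are limited to ±4 and the numbers are not. In WM115 clones 4.1 and 4.2 CAPN3, ABCB5, GPNMB and MITF are the darkest cells while SOX10 is at −0.33 and −0.28; A375 values of CAPN3, ABCB5 and TRPM1 rest on levels near 0.

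Counted together, few A375 members were called against WT. A call is an adjusted p under 0.05 with a log2 difference of at least 1. Of the 5 genes that passed the filter in A375 (GPNMB, RAB27A, RAB38, MYO5A and MLPH), none was called in clone 1.1, where 0.731% of the 16692 genes tested were called, and none in clone 4.2, where 0.473% were. By limma's unadjusted p under 0.05, 3 of the 5 would pass in clone 1.1 (GPNMB, MYO5A and MLPH), where 10.1% of all genes would, and 1 in clone 4.2 (GPNMB), where 7.77% would. MLPH was the 1 gene called higher in clone 1.2 (2.57% of all genes called higher) and the 1 gene called lower in clone 4.1 (0.407% called lower). Between clones, GPNMB was called higher in clone 1.2 than in 1.1 (4.68%) and MLPH higher in 4.2 than in 4.1 (0.953%). Libraries that did not overlap WT were those of GPNMB below WT in clone 1.1 (4.71% of genes), MLPH above WT in clone 1.2 (8.5%), and MLPH below and RAB38 above WT in clone 4.1 (3.27% and 3.86%). MITF, which is not a member, was called lower in A375 clone 1.1 (−1.31, SE 0.19, limma adjusted p = 0.00165), as were 0.545% of all genes. MITF was at −0.96 in clone 4.2 (adjusted p = 0.0268, below the size threshold), −0.41 in clone 1.2 and −0.40 in clone 4.1. In clone 1.1 GPNMB was at −1.01, RAB27A at 0.03, RAB38 at 0.09, MYO5A at 0.52 and MLPH at 0.81.

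In WM115 all 8 genes passed the filter, and CAPN3 and ABCB5 were left out of the tests against WT in the R1 clones. TRPM1 is not counted either, because its calls there follow from the filter, which leaves 5 genes. In clone 1.1 RAB27A alone of the 5 was called lower, where 3.66% of 16997 genes were called lower. In clone 1.2 GPNMB, RAB38 and MYO5A were called lower (3.11%). Their count of 3 was 0 without library 3 of the clone or WT library 4, and 2 without clone library 1 or WT library 1 or 2. In clone 1.3 none was called (0.618%), and by limma's unadjusted p under 0.05 the count was also 0, against 13% of all genes. Against clone 1.1, clone 1.2 had 3 genes called lower (GPNMB, RAB38 and MYO5A, with 3.25% of all genes) and 2 higher (RAB27A and MLPH, with 8.51%). Of these 5 calls, 2 (RAB27A and MLPH) were made without library 3. The count was 3 (RAB27A, MYO5A and MLPH) without library 1 or library 5 of clone 1.1.

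For the R4 clones the members were chosen with the contrast in view, so nothing is read from their counts. Clone 4.1 had 5 genes 2-fold or more below WT (5.2% of all genes) and clone 4.2 had 6 (4.89%), CAPN3, ABCB5, TRPM1, GPNMB and MYO5A in both and RAB38 in clone 4.2. Libraries lay wholly below WT for 4 genes in clone 4.1 (23.1% of all genes) and for 5 in clone 4.2 (20.7%). Only RAB27A was wholly below WT in clone 1.1 (16.5%), and none was in clone 1.2 (13.2%) or clone 1.3 (7.08%). Both R4 clones share the 4 WT libraries, so their values are given side by side and not counted as separate support. The median over the 8 genes was −1.36 in clone 4.1 and −1.23 in clone 4.2, against −0.10 for all genes in both. SOX10 differed by −0.33 (SE 0.70) and −0.28 (SE 0.70) in these clones and MITF by −3.40 (SE 0.61) and −2.80 (SE 0.61).

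Libraries of 1 WM115 group differed among themselves, in WT and clones 1.1 and 1.3 in the same direction for most members and in the other groups in mixed directions. WT library 3 was the lowest WT library for all 8 genes, and WT library 4 the highest for all 8. For all genes at a mean of at least 1 TPM, library 3 was the lowest of WT in 36.9% and library 4 the highest in 25.9%. In clone 1.3, library 3 was the highest for 7 of the 7 genes at that level (36.5% of all genes) and library 2 the lowest for 6 of 7 (30.9%). In clone 1.1, library 3 was the lowest for 6 of 7 (19.4%), RAB27A being the exception. Members did not move together in the other groups: of 7 genes in clone 1.2, library 3 was the lowest for 4 and the highest for 2, and of 6 genes in clone 4.1 library 3 was the lowest for 2 and the highest for 2. In clone 4.2, library 1 was the lowest for 4 of 6 and the highest for 2. MITF had the same extremes in WT, with 60.5 TPM in library 3 and 164 TPM in library 4, and in clone 1.3, with 42.1 TPM in library 2 and 202.4 TPM in library 3. In clone 1.1 MITF was lowest in library 2, at 50.95 TPM, and library 3 held 54.35 TPM.

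The link with MITF can be described within groups, after taking each group's mean from its libraries. Over the 21 WM115 libraries, Pearson's r with MITF was 0.98 for RAB38, 0.91 for MYO5A, 0.89 for CAPN3, 0.82 for ABCB5, 0.76 for GPNMB and 0.47 for TRPM1. For RAB38, 0.00893% of 11203 genes with a mean of at least 5 TPM, which may include MITF itself, had a higher r. That share was 0.562% for MYO5A, 0.768% for CAPN3, 2.67% for ABCB5, 4.61% for GPNMB and 17.7% for TRPM1. Spearman's rho was 0.98 for RAB38, 0.79 for MYO5A, 0.91 for CAPN3, 0.74 for ABCB5, 0.78 for GPNMB and 0.50 for TRPM1. For MLPH and RAB27A r was 0.25 and 0.20, in the range of many genes, since 33.0% and 36.7% of genes had a higher one.

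Leaving out libraries 2 and 3 of clone 1.2, which lay farthest from the median of MITF within groups, r was 0.96 for RAB38, 0.92 for CAPN3, 0.85 for ABCB5, 0.82 for MYO5A and 0.80 for GPNMB. It was 0.72 for TRPM1, 0.65 for RAB27A and 0.41 for MLPH. Library 3 of clone 1.2 had 28.5 TPM of RAB27A and 34.3 TPM of MLPH at an MITF of 6.16 TPM. The points share their libraries and the fixed sum of TPM, so these are descriptions with no test. Between the 6 group means r was 0.98 for CAPN3 and GPNMB, 0.94 for ABCB5, 0.86 for MYO5A, 0.72 for TRPM1, 0.69 for RAB38, 0.48 for MLPH and 0.08 for RAB27A. RAB38 thus followed MITF closely from library to library within a clone, while its level in the R4 clones (32.9 to 57.4 TPM) was higher than in library 3 of clone 1.2 (8.00 TPM) at MITF levels of 9.25 to 18.3 and 6.16 TPM. SOX10 was 321 to 506 TPM in the R4 libraries and 9.56 TPM in that one.

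**Figure D4:**
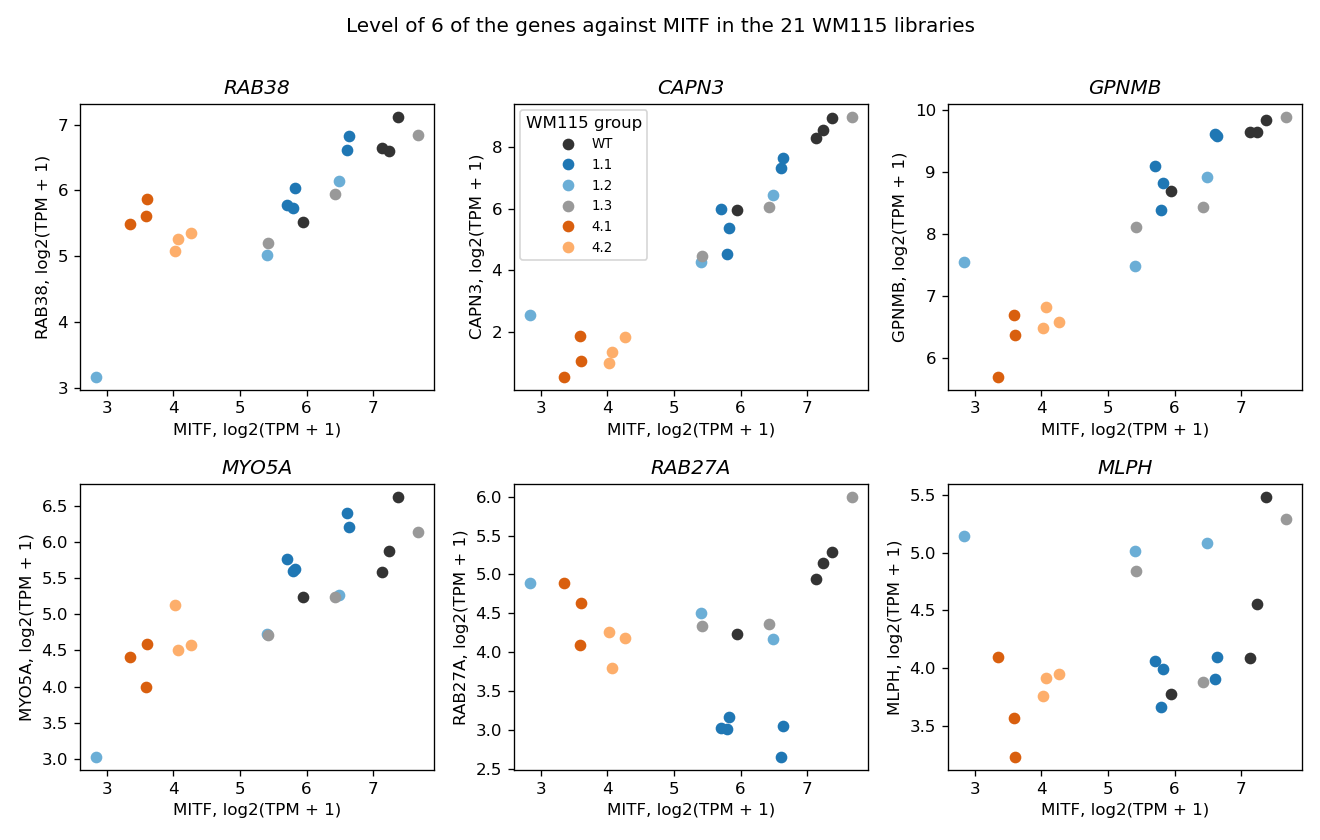
Level of RAB38, CAPN3, GPNMB, MYO5A, RAB27A and MLPH (vertical axes) against MITF (horizontal axes) in the 21 WM115 libraries, all as log2(TPM + 1) and coloured by group. The first 4 genes rise with MITF, RAB27A of clone 1.1 lies below the other groups at the same MITF, and library 3 of clone 1.2 is the point at the far left of each panel.

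A375 offers a comparison at low MITF. Its MITF was 7.23 to 26.7 TPM, close to the 9.25 to 18.3 TPM of the WM115 R4 clones. At these levels both lacked ABCB5 (at most 0.094 and 0.115 TPM) and TRPM1 (at most 0.01 and 0 TPM), and CAPN3 was at most 0.999 TPM in A375 and 2.64 TPM in the R4 clones. TRPM1 was not absent at low MITF alone: all 5 libraries of WM115 clone 1.1 listed it at 0, with MITF at 51.0 to 98.1 TPM. GPNMB ran from 29.3 to 155 TPM in A375 and from 51.3 to 112 TPM in the R4 clones. RAB27A was higher in the R4 clones (12.8 to 28.7 TPM against 4.90 to 8.49 TPM), as were RAB38 (32.9 to 57.4 against 19.9 to 32.8 TPM) and, apart from 1 library of clone 4.1 at 8.37 TPM, MLPH (8.37 to 16.1 TPM against 0.035 to 9.65 TPM). MYO5A ranges overlapped (14.9 to 34.1 and 20.3 to 48.1 TPM). The lines were not compared by a test.

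Of 19 calpain, TRPM and ABCB genes outside the set, relatives of CAPN3, TRPM1 and ABCB5, 17 were tested in WM115. Against WT, 2 were called lower in clone 1.1 (3.66% of all genes), 1 in clone 1.2 (3.11%) and none in clone 1.3 (0.194%). By limma's unadjusted p under 0.05, 14, 9 and 3 of the 17 would pass in clones 1.1, 1.2 and 1.3. Of all genes 35.1%, 36.5% and 13% would. Their median log2 difference was −0.61 in clone 1.1, where all genes had −0.12, and −0.38 in clone 1.2, where all genes had −0.02. TRPM8, a cold-sensing channel, was the relative with the widest range in WM115, from a mean of 22.1 TPM in WT to 3.30 TPM in clone 4.2. TRPM8 fell by 2.10 (SE 0.49, limma adjusted p = 0.0059) in clone 1.1 and by 1.90 (SE 0.56, adjusted p = 0.0224) in clone 1.2. The ubiquitous calpains CAPN1 and CAPN2 stayed between 24.3 and 69.3 TPM and between 114 and 279 TPM in WM115. ABCB4 had 1.47 to 16.0 TPM there.

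Of 15 further RAB27, myosin and effector genes, 11 were tested in WM115 and 12 in A375. In WM115 clone 1.1, 1 was called lower and 1 higher against WT, as were 3.66% and 1.22% of all genes. In WM115 clone 1.2, 2 were called higher (4.49% of all genes). In A375, 2 were called higher in clone 1.2 (2.57%) and 1 in clone 1.1 (0.186%). In WM115 clone 1.1, where RAB27A was low, MYO5C fell by 1.19 (SE 0.23, limma adjusted p = 0.0017) and SYTL5, a RAB27 effector, rose by 3.19 (SE 0.48, adjusted p = 0.000177) from 0.748 to 15.7 TPM. RAB27B, the paralog of RAB27A, was at most 4.5 TPM in WM115. RAB27B rose by 1.25 (SE 0.27, limma adjusted p = 0.00433) in clone 1.2. UNC13D, another RAB27 effector, was called higher in clone 1.2, which is a separate clone in each line. The rise was 2.38 in A375 (SE 0.26, limma adjusted p = 1.44e-05), from a mean of 0.4435 TPM in WT to 6.587 TPM. In WM115 it was 1.04 (SE 0.26, limma adjusted p = 0.0102), at low means of 0.5265 TPM in WT and 2.245 TPM in the clone. The median difference of the 11 genes was 0.21 in clone 4.1 and 0.22 in clone 4.2, where all genes had −0.10.

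Of 24 genes of the BLOC, AP-3 and related complexes that build melanosomes with RAB38, all were tested in both lines, and none was called in WM115 clone 1.1, 1.2 or 1.3 against WT. By limma's unadjusted p under 0.05, 10, 9 and 5 of them would pass in these clones, where 35.1%, 36.5% and 13% of all genes would. In A375 clone 1.1 LYST, a lysosome trafficking regulator, fell by 1.28 (SE 0.23, limma adjusted p = 0.00851) and AP3S1 rose by 1.23 (SE 0.27, adjusted p = 0.0316). Of all genes 0.545% were called lower and 0.186% higher in that clone. LYST also had the widest range of the list in WM115, 120 TPM in WT and 13.1 TPM in clone 4.2. RAB32, the closest relative of RAB38, went from 38.4 TPM in WM115 WT to 12.8 TPM in clone 4.1.

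Counts for neighbouring lists in the R4 clones of WM115 are given with no test, beside 5.2% of all genes 2-fold or more below WT in clone 4.1 and 4.89% in clone 4.2. Of 8 melanin synthesis and melanosome matrix genes 7 were 2-fold or more below WT in clone 4.1 and 7 in clone 4.2, with medians of −3.56 and −2.89. Of 19 other MITF-linked genes 14 and 13 were, with medians of −1.40 and −1.33. Of 17 lysosomal genes of the related factors TFEB and TFE3 none and 1 were, with medians of −0.24 and −0.32. All genes had a median of −0.10 in both clones.

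Genes whose pattern was most like the mean of the 8 were sought over the 11 group means, each line centred on its own mean, among 11034 genes of at least 5 TPM in a group of both lines. The highest Pearson's r belonged to COQ9 and GCNT2 (0.98 each), then HMGCS1, TBC1D7 and MVD (0.97 each). HMGCS1 and MVD are enzymes of the mevalonate pathway, COQ9 serves coenzyme Q synthesis, and GCNT2 is a glycosyltransferase. COQ9 had 96.8 ± 13.8 TPM in WM115 WT and 46.7 ± 2.71 TPM in clone 4.1 (SD, n = 4 and 3). MITF ranked at place 42 (r 0.92) and SOX10 at 4664 (r 0.17). The members themselves ranged from 0.98 (CAPN3) and 0.97 (ABCB5) to 0.15 (RAB27A). Each member is part of the mean it is set against, so these values are not read as support. The profiles were not scaled, so the mean follows most the genes of widest range, CAPN3 and ABCB5 in WM115. Within A375 alone, over 5 group means, r was −0.49 for TBC1D7, 0.67 for COQ9 and 0.81 for HMGCS1. There it was 0.08 for MITF and −0.83 for SOX10. Over the 6 WM115 group means r was 0.98 for MITF and 0.22 for SOX10.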

How the data were processed

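Poly-A RNA of 39 cell line libraries was sequenced. DRAGEN and GRCh38 are named in the submitters' processing notes; the annotation release is not given in the sources used here. The authors deposited TPM per gene and per transcript, per the file headers, with no counts, so the depth is unknown and no counting interval is given. Of the value columns in each table, 6 match no sample and were not used, and 200 repeated lines of the gene table were merged. Samples were grouped by their titles. The members and lists were chosen with earlier results of these data known.

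log2(TPM + 1) was fitted per line with limma 3.58.1 (R 4.3.3), with 1 coefficient per group, a variance trend and two-sided tests, for genes at 1 TPM or more in at least 3 libraries. P-values were Benjamini-Hochberg adjusted over all genes tested. The fit was tested on simulated data. Named genes were the 8 members, MITF, SOX10, for each list at most the 3 genes of widest range with a group mean of at least 5 TPM, and the 5 genes most like the members; further genes of the lists (CAPN1, CAPN2, RAB27B, KRT1, DCN, COL1A1, COL1A2 and relatives) were chosen after their values were seen. Starts came from GENCODE 29 (GRCh38), placing 58453 of 60671 identifiers, and sequences from RefSeq (GRCh38.p14). Replicate numbers paired the libraries only for A375 clone 4.1 and WT, where the 4 same-numbered pairs correlated at 0.33 to 0.78. The main fit did not use this pairing, so its SE and p-values for that comparison may hold spread that the pairs share. Alternatives covered the added constant, filter, scaling, mitochondrial share, chromosome median, groups in the fit, replicate block and leaving out libraries.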

Additional observations from a re-analysis of the deposited data

Results flagged for a closer look

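In 29 sets of 4 or 5 libraries examined, a library far from the others was found in 2, where chance gives about 1 in 20. GPNMB was at 134.411 TPM in A375 WT library 2 (the other WT libraries held 62.5 to 64.4 TPM). RAB27A was at 5.957 TPM in A375 clone 4.1 library 2 (the others held 8.06 to 8.41 TPM). Both are library 2 of the 2 groups that replicate numbers pair, so the 2 finds are not separate. RAB27A was also lowest in WT library 2 (4.90 TPM), and GPNMB was highest in clone 4.1 library 2 (63.2 TPM). These libraries had the highest ribosomal protein shares of A375, 25.5% in WT and 26.0% in clone 4.1, and the part of that share was not tested.

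Clones with the same deletion differed in 7 tests, all with limma and Benjamini-Hochberg adjustment, on the log2(TPM + 1) scale. In A375, GPNMB was higher in clone 1.2 than in clone 1.1 by 1.49, and MLPH was higher in clone 4.2 than in clone 4.1 by 1.99. The MLPH libraries did not overlap, and 1 GPNMB library of clone 1.2 lay inside the range of clone 1.1. In WM115, clone 1.2 against clone 1.1 differed by −1.11 for GPNMB, −1.43 for RAB38, −1.58 for MYO5A, 1.54 for RAB27A and 1.14 for MLPH. Library 3 of WM115 clone 1.2, with SOX10 at 9.56 TPM, was the lowest of its clone for RAB38 and MYO5A and the highest for RAB27A and MLPH; without it, GPNMB, RAB38 and MYO5A were no longer called.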

How the results depend on the processing

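Of the 82 single log2 differences, 12 changed sign under an alternative; each was at most 0.20 in size as reported, and 0 of them had an adjusted p under 0.05 in limma. Of the 217 alternatives to the 12 counts of members, 171 left the count within 1.5 times, and of 846 alternatives to the 82 single values, 751 kept their side of the threshold or their size. The median of all genes in WM115 against WT, −0.12 in clone 1.1 and −0.10 in clone 4.1 as deposited, became −0.02 and 0 with median-of-ratios scaling.

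In A375 the count in clone 1.2 against WT went from 1 to 0 with log2(TPM + 0.1), with a mean of at least 5 TPM, within 1 set of mitochondrial share and with the replicate block, and ranged from 0 to 1 when a library was left out. For clone 4.1 against WT it went from 1 to 0 with a mean of at least 5 TPM, with no filter, within 1 set of mitochondrial share and with only the 2 groups in the fit, and from 0 to 1 over left-out libraries. For clone 1.2 against 1.1 it went from 1 to 0 within 1 set and with the block, and from 0 to 1 over left-out libraries. For clone 4.2 against 4.1 it went to 0 with a mean of at least 5 TPM, within 1 set and with the block. A mean of at least 5 TPM removes MLPH from the A375 fit.

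In WM115, with TRPM1 counted, the number called in clone 1.1 against WT went from 2 to 1 (RAB27A remained called) with a mean of at least 5 TPM, with mitochondrial share as a term, within 1 set, relative to the chromosome median and with the block, and from 1 to 2 over left-out libraries. For clone 1.2 against WT it went from 4 to 2 with no filter and to 0 within 1 set, with only the 2 groups and with the block, and from 0 to 4 over left-out libraries. For clone 1.2 against 1.1 it went from 5 to 3 with no filter and with only the 2 groups, to 0 within 1 set and with the block, and from 2 to 7 over left-out libraries, CAPN3 and ABCB5 being added without library 2 of clone 1.2; ABCB5 was also added, for a count of 6, with log2(TPM + 0.1). Apart from A375 clone 4.1 against WT, the blocked libraries share only a number. Fits within 1 set or with a block have fewer libraries. The causes of the other changes were not tested.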
